A study of Mus musculus with 18 samples.

Results

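Memory CD8 T cells were compared with naive CD8 T cells after both had spent 20 hours in culture with IL-7. The members are the 4 arrays titled as IL-7 treated, 2 of memory and 2 of naive cells, out of 18 arrays in the series. The reference is the same difference before culture, on 4 memory and 2 naive arrays hybridised with RNA of cells taken directly from the sort (ex vivo). Every array measured mRNA of CD8 T cells sorted from the spleens of F5 mice on a C57Bl/6 background, which carry a transgenic T cell receptor, so both cell states share one receptor. Memory cells (TIM in the labels) were taken from F5 mice that had been immunised more than once with the NP68 peptide and were analysed on day 45. Naive cells came from F5 mice, and one label field nevertheless calls them naive memory cells. IL-7 was used at 10 ng/mL. A further 4 arrays held memory and naive cells cultured with IL-7 and IL-4 at 20 ng/mL, 2 of each, and 4 arrays held memory cells in IL-4 or in medium alone, 2 of each. No naive cells in medium alone were analysed here, so the response of naive cells to IL-7 cannot be told apart from their response to culture. The design text says that samples of the sorted populations were cultured, so cultured and ex vivo arrays may come from the same populations. Nothing says that cultured replicates came from separate animals, and the p-values then measure only the spread between these arrays, which may be technical.

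IL-7 is the cytokine that keeps resting T cells alive. Its receptor pairs the IL-7 receptor alpha chain, encoded by Il7r, with the common gamma chain, and signals through JAK kinases to the transcription factor STAT5. STAT5 raises feedback inhibitors such as CISH and SOCS2 and the survival factor BCL2, while IL-7 signalling lowers Il7r itself. Memory CD8 T cells differ from naive cells in stable ways that are known to speed their response: they transcribe chemokine, interferon-gamma and NK-type receptor genes, carry CXCR3 and CD44, and depend on the transcription factors T-bet and EOMES. Whether such differences last when both cell states are rested in the same cytokine is the question this comparison addresses.

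Values are log2 RMA values, in which 1 unit is a doubling of the signal. A difference is memory minus naive on that scale, given with its standard error (SE). A gene was called when its Benjamini-Hochberg adjusted p in limma was under 0.05 over the 13770 genes tested, from 1 fit of all 18 arrays in 8 groups. A gene is called lasting when it passed this test both ex vivo and in IL-7 with the same sign. It is culture-only when it passed in IL-7, did not pass ex vivo, and the change of the difference itself passed (the IL-7 difference minus the ex vivo difference). It is lost in the converse case, turned when it passed both with opposite signs, and undecided when it passed in 1 comparison and the change of the difference did not pass.

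Several arrays bear on these results. The array labelled memory in medium, replicate 2, lay closer to memory ex vivo array 2 than to the other medium array: the standard deviation of the gene-by-gene differences was 0.239 against 0.742. Nr4a1, an immediate early gene, read 5.51 and 12.6 on the medium arrays and 12.9, 12.6, 12.5 and 12.6 on the memory ex vivo arrays. That array enters the memory-naive differences through the pooled spread and the choice of probe sets, and the main counts below are also given without it. It is 1 of the 2 medium arrays, so it also enters that group's mean and the comparison of IL-7 with medium. Each memory IL-7 array lay closer to memory medium array 1 (0.228 and 0.229) than to the other memory IL-7 array (0.262), and 0 of 13770 genes passed limma's test between memory cells in IL-7 and in medium, 804 at an unadjusted p under 0.05. Without the second medium array that count was also 0. Xist, the non-coding RNA of X inactivation that female cells transcribe, read 12.1 and 12.9 on the memory IL-7 arrays against 4.66 and 4.44 on the naive ones. The Y-linked gene Eif2s3y read 10.2 and 6.65 on the former and 10.7 and 10.5 on the latter. Ex vivo, Xist read 12.0, 12.8, 4.40 and 11.8 on the memory arrays and 4.35 and 4.40 on the naive arrays. Sex-linked signal therefore moves with cell state in IL-7, and the 2 cannot be told apart in this comparison. This holds for genes of any chromosome. Of 388 X-linked genes tested, 10 were higher and 6 lower in memory cells in IL-7 (4.12% in all) and 6 were lasting (1.55%), against 2.7% and 0.806% of all genes, while 0 of 5 Y-linked genes passed.

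Markers of CD8 T cells were high in both cell states. The mean of 7 CD8 T cell markers lay between 11.8 and 12.0 on the 4 IL-7 arrays. The mean of 7 B cell markers was 6.16 to 6.27 in memory and 5.96 to 5.97 in naive cells, that of 9 myeloid markers 4.35 to 4.48 and 4.23 to 4.33, that of 4 NK cell markers 3.79 to 4.04 and 3.72 to 3.78, that of 4 CD4 T cell markers 5.09 to 5.21 and 4.92 to 4.998, that of 7 MHC class II cell markers 4.67 to 4.86 and 4.74 to 4.99, and that of 4 platelet markers 5.05 to 5.12 and 5.13 to 5.26. Of these lists' tested members, 1 of 6 myeloid and 1 of 3 CD4 T cell markers passed in IL-7, and 0 of 7 B cell, 4 NK cell, 7 MHC class II cell and 3 platelet markers. Fcgr3, an Fc receptor gene, was higher in memory cells (difference 1.23, adjusted p = 0.0149), as was Zbtb7b, the CD4 lineage factor (0.90, adjusted p = 0.0173). Both calls were lost without any 1 of the 4 IL-7 arrays (adjusted p up to 0.183 and 0.185). Ex vivo, memory arrays lay above naive arrays in the means of B cell (6.13 to 6.67 against 5.81 to 5.85), MHC class II cell (5.23 to 6.07 against 4.79 to 4.82), NK cell (4.11 to 4.84 against 3.76 to 3.83) and myeloid markers (4.61 to 4.74 against 4.36 to 4.45). The same held for CD4 T cell (4.95 to 5.24 against 4.79 to 4.81), platelet (5.10 to 5.56 against 4.94 to 4.99) and red cell markers (5.64 to 7.44 against 4.59 to 4.70). Of these lists 1 gene passed ex vivo, the B cell gene Ms4a1 (1.55, adjusted p = 0.0415), a call lost without any 1 of the 10 arrays except memory ex vivo array 3 (adjusted p up to 0.294). At an unadjusted p under 0.05, 4 of 7 B cell, 4 of 7 MHC class II cell, 3 of 4 NK cell and 1 of 6 myeloid markers passed ex vivo, against 17.2% of all genes. So did 2 of 3 CD4 T cell and 1 of 1 red cell markers, but 0 of 3 platelet markers. H2-Aa, an MHC class II gene, read 7.49, 7.30, 4.89 and 5.37 on the memory and 4.24 and 3.99 on the naive ex vivo arrays, and 3.96 and 7.44 on the memory medium arrays. The red cell gene Alas2 read 10.1 and 7.05 in memory and 4.99 and 4.15 in naive cells without passing the test. Hba-a1 read 3.29 and 3.35 in memory and 3.17 and 3.41 in naive cells. It lay under the filter value of 4.06 on all 18 arrays and was not tested, so it says nothing either way. The part of these marker signals in the results was not tested. In these bulk samples, a lower share of cells transcribing a gene and less RNA of it per cell cannot be told apart.

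In IL-7, memory and naive cells differed in 372 of 13770 genes (2.7%), 175 higher (1.27%) and 197 lower (1.43%) in memory cells. Ex vivo, 266 genes passed (1.93%), 141 higher (1.02%) and 125 lower (0.908%). The 111 genes called in both comparisons (0.806% of all tested) had the same sign in each. They made up 29.8% of the genes called in IL-7 and 41.7% of those called ex vivo. So 83 lasting genes were higher in memory cells (0.603% of all genes tested) and 28 were lower (0.203%). The change of the difference passed for 7 genes (0.0508%), 1 upward (0.00726%) and 6 downward (0.0436%), all of them culture-only, with 1438 at an unadjusted p under 0.05. In limma's test 0 genes were lost and 0 turned. The remaining 254 IL-7 calls, 91 higher (0.661%) and 163 lower (1.18%), and 155 ex vivo calls (1.13%), 58 higher (0.421%) and 97 lower (0.704%), were undecided. From ex vivo to IL-7, 2745 genes passed in memory cells (19.9%) and 1762 in naive cells (12.8%), 964 upward (7%) and 798 downward (5.8%). The memory comparison has 4 ex vivo and 2 IL-7 arrays and the naive one 2 and 2. The counts therefore differ in power and do not compare the size of the response. The memory count was 54 without memory IL-7 array 1 and 3 without memory IL-7 array 2. The naive count was 694 and 258 without naive IL-7 array 1 or 2, and 796 and 353 without naive ex vivo array 1 or 2. With each array centred on its own median, the split in IL-7 moved to 247 higher and 123 lower of 370, since centring shifted all differences by a median of 0.13. Leaving out the second medium array gave 661 IL-7 calls, 605 ex vivo calls, 175 lasting, 78 culture-only, 28 lost and 8 turned genes. Without single IL-7 arrays the IL-7 calls fell to 161 (memory array 1), 86 (memory array 2), 200 (naive array 1) and 137 (naive array 2), and the lasting genes to 76, 52, 73 and 72.

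**Figure D1:**
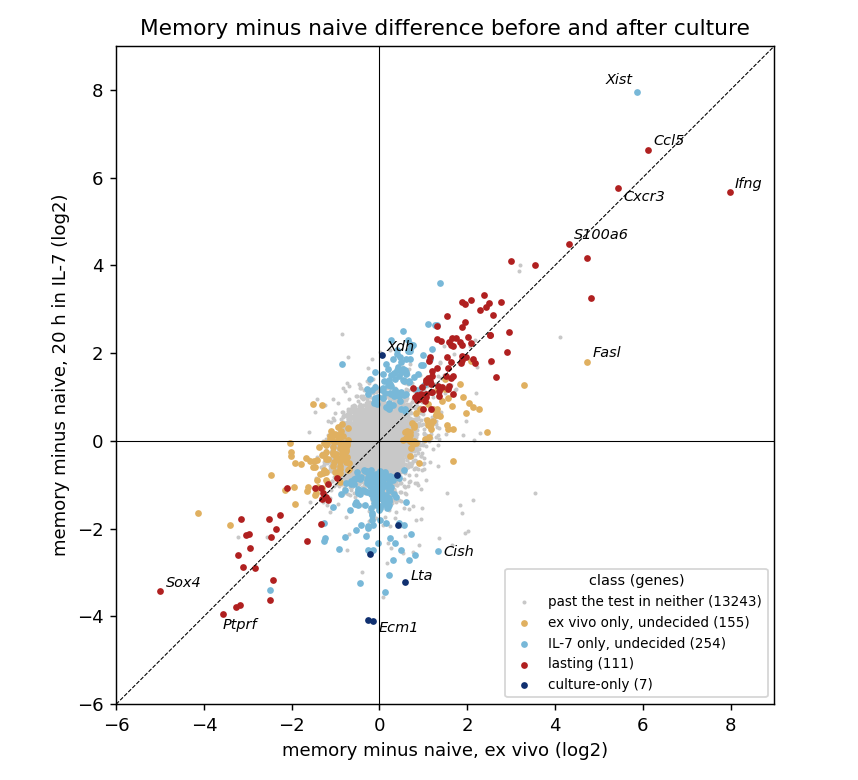
Memory minus naive difference of each of 13770 genes ex vivo (horizontal axis, log2) and after 20 hours in IL-7 (vertical axis, log2); colours give the class of each gene and the dashed line marks equal differences. The 111 lasting genes have the same sign on both axes by definition. Of the 7 culture-only genes, 6 lie below 0 in IL-7, with ex vivo differences from -0.26 to 0.58.

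Of the lasting genes, the 3 with the largest differences in IL-7 encode secreted effector molecules and a receptor that guides cells to inflamed tissue (Ccl5, Ifng and Cxcr3). Ccl5, the chemokine RANTES, read 12.0 and 12.0 on the memory and 4.90 and 5.82 on the naive IL-7 arrays, and 12.6, 12.1, 11.4 and 11.8 against 5.97 and 5.71 ex vivo. Memory cells changed by 0.03 in culture, which did not pass, and every memory array lay above every naive one. The difference was 6.63 ± 0.34 (SE, adjusted p = 2.1e-07) in IL-7, 99.2-fold, and 6.12 ± 0.30 ex vivo. Ifng, which encodes interferon-gamma, read 9.89 and 9.75 in memory and 3.29 and 5.03 in naive cells in IL-7, and 12.6, 11.9, 11.4 and 12.3 against 4.28 and 3.81 ex vivo. The groups did not overlap in either condition, although memory cells fell by 2.21 in culture (adjusted p = 0.0113). The Ifng difference was 5.66 ± 0.59 (SE, adjusted p = 8.12e-05) in IL-7 and 7.98 ± 0.51 ex vivo, and the change between them did not pass (-2.32, adjusted p = 0.297). Of 15 cytokine and chemokine genes tested, these were the 2 that were higher in memory cells in IL-7, and 3 were lower. Every list count in IL-7 given here and below stands against 1.27% higher and 1.43% lower among all genes tested.

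The inflammatory chemokine receptor Cxcr3 read 12.6 and 13.1 on the memory and 6.68 and 7.49 on the naive IL-7 arrays, and 12.4, 12.2, 12.3 and 12.5 against 6.67 and 7.16 ex vivo. Its difference was 5.76 ± 0.33 (SE, adjusted p = 4.47e-07) in IL-7 and 5.44 ± 0.29 ex vivo. Cxcr5, the receptor that guides lymphocytes to B cell follicles, read 7.40 and 8.07 in memory and 3.29 and 3.99 in naive cells in IL-7. Before culture it read 7.80, 7.97, 7.78 and 7.82 against 4.63 and 5.04. Cxcr5 changed by -0.10 in memory cells, which did not pass, while naive cells fell by 1.20 (adjusted p = 0.0179), which left a difference of 4.10 ± 0.29 (SE, adjusted p = 2.66e-06) in IL-7 against 3.005 ex vivo. Ccr9, the receptor for homing to the gut, ran the other way at 8.95 and 8.37 in memory and 10.9 and 10.7 in naive cells in IL-7. These were the 2 higher and the 1 lower of 25 chemokine receptor and adhesion genes. Cdh1, which encodes E-cadherin, read 6.94 and 7.02 against 2.92 and 3.002 in IL-7, a difference of 4.01 ± 0.36 (SE, adjusted p = 2.34e-05).

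NK-type receptors and IL-18 receptor subunits were further traits higher in memory cells. Klrk1, which encodes NKG2D, read 6.27 and 6.73 on the memory and 4.12 and 3.91 on the naive IL-7 arrays, and 7.24, 7.18, 6.53 and 7.24 against 3.97 and 4.21 ex vivo. All memory arrays lay above all naive arrays, with a difference of 2.49 ± 0.23 (SE, adjusted p = 2.88e-05) in IL-7. Klrc1, which encodes NKG2A, differed by 1.83 ± 0.40 (SE, adjusted p = 0.0252) in IL-7 and by 2.55 ex vivo. A second Klrc1 probe set, slightly lower in mean signal (3.76 against 4.00), differed by -0.13 in IL-7. Klrd1, which encodes the CD94 chain that pairs with NKG2A, was near equal ex vivo (0.14) and differed by 1.76 ± 0.41 (SE, adjusted p = 0.0326) in IL-7, with 12.5 and 12.5 in memory and 10.9 and 10.5 in naive cells. These were the 3 of 12 NK-type receptor and adaptor genes called in IL-7, with a list median of 0.34 in IL-7 and 0.49 ex vivo, against -0.05 and 0.03 over all genes. The Klrd1 call is undecided, since the change of its difference did not pass (adjusted p = 0.293). The accessory chain of the IL-18 receptor, Il18rap, read 7.46 and 7.15 against 4.65 and 5.12 in IL-7, a difference of 2.42 ± 0.28 (SE, adjusted p = 0.000174) against 2.52 ex vivo. The binding chain, Il18r1, read 11.3 and 11.2 against 9.84 and 9.70 and passed in IL-7 (1.45, adjusted p = 0.0194) but not ex vivo (0.79, adjusted p = 0.157). Klrd1 and Il18r1 lost their IL-7 calls when any 1 of the 4 IL-7 arrays was left out, with adjusted p up to 0.299 and 0.173. Klrc1 lost its call without memory array 1 (adjusted p = 0.299), naive array 1 (0.141) or naive array 2 (0.123).

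Of the transcription factors of effector and memory cells, Tbx21, Hopx and Prdm1 were lasting. Tbx21, which encodes T-bet, read 7.67 and 7.35 on the memory and 3.001 and 5.48 on the naive IL-7 arrays, and 8.59, 8.33, 7.98 and 9.04 against 3.53 and 3.77 ex vivo. The groups did not overlap, and naive array 2 was the nearest to memory cells. The difference was 3.27 ± 0.77 (SE, adjusted p = 0.0357) in IL-7. This call was lost without memory array 1 (adjusted p = 0.233), memory array 2 (0.176) or naive array 1 (0.283), and just missed the threshold without memory ex vivo array 1 (0.0526) or either naive ex vivo array (0.051). Hopx, a homeodomain cofactor, read 10.5 and 10.7 against 8.03 and 7.37 in IL-7 and 10.7, 10.6, 10.4 and 10.4 against 8.34 and 7.58 ex vivo, and differed by 2.88 ± 0.26 (SE, adjusted p = 2.22e-05) in IL-7. Prdm1, which encodes BLIMP1, differed by 0.92 ± 0.20 (SE, adjusted p = 0.0225) in IL-7, a call lost without memory array 2 (0.289), naive array 1 (0.0732) or naive array 2 (0.23). Its ex vivo call was lost without memory ex vivo array 1 (0.0539) or naive ex vivo array 2 (0.278). These were the 3 genes called of 21 tested, all lasting. The median of the 21 was 0.03 in IL-7 and 0.32 ex vivo. Eomes, the T-box relative of T-bet, read 7.35 and 6.64 in memory and 4.83 and 7.16 in naive cells in IL-7 and did not pass in either comparison.

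The calcium-binding protein S100a6 read 9.87 and 10.3 on the memory and 4.88 and 6.30 on the naive IL-7 arrays, and 9.23, 8.20, 8.66 and 8.70 against 4.54 and 4.22 ex vivo. It was higher on every memory array than on any naive array, by 4.49 ± 0.62 (SE, adjusted p = 0.00109) in IL-7. Ahnak, a large scaffold protein of the cell cortex, differed by 2.25 ± 0.41 (SE, adjusted p = 0.00799) in IL-7 and 1.58 ex vivo, and lost its IL-7 call without memory array 1 (0.0827), memory array 2 (0.0678) or naive array 1 (0.0919). Its ex vivo call was lost without any 1 of the 6 ex vivo arrays or either memory IL-7 array (adjusted p up to 0.257). Other Ahnak probe sets, of lower mean signal (4.20, 3.93 and 3.85 against 8.72), differed by -0.19, 0.30 and 0.08 in IL-7. With the myosin gene Myo1f these were the 3 called of 22 S100, annexin, galectin and cytoskeleton genes, all higher in memory cells. Myo1f passed in IL-7 only (2.06, adjusted p = 0.038), and lost its call without any 1 of the 4 IL-7 arrays, memory ex vivo array 1 or 3 or either naive ex vivo array (adjusted p up to 0.269). Among inhibitory receptors, 2 of 11 were called, both higher and both lasting. Ctla4, the inhibitory receptor that binds CD80 and CD86, fell in culture in both cell states and ended at 11.8 and 12.4 in memory and 8.85 and 8.73 in naive cells, from 13.5, 13.4, 13.5 and 13.3 in memory and 11.6 and 10.5 in naive cells ex vivo. The Ctla4 difference was 3.32 ± 0.39 (SE, adjusted p = 0.000255) in IL-7 against 2.39 ex vivo. Nt5e, which encodes the ectonucleotidase CD73, rose in culture in both cell states, by 0.95 in memory (adjusted p = 0.0215) and 2.14 in naive cells (0.00144). It ended at 8.28 and 7.76 against 6.64 and 6.50, and its IL-7 call was lost without any 1 of the 4 IL-7 arrays (adjusted p up to 0.201). The call rests on 1 of 3 probe sets: the others differed by 0.03 and -0.14 in IL-7, and the mean of the 3 by 0.45 (adjusted p = 0.103).

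The other lasting genes named by size are less familiar in T cells. H2-Q10, a non-classical MHC class I gene, read 7.68 and 7.96 in memory and 3.87 and 3.43 in naive cells in IL-7, a difference of 4.17 ± 0.34 (SE, adjusted p = 1.17e-05), and is uncertain because its probes may share signal with near-identical H2-Q genes. The serine protease gene Prss12 rose in memory cells in culture, by 1.82 (adjusted p = 0.00862), and reached 10.8 and 11.4 against 8.13 and 7.68 in naive cells. The ADP-ribosyltransferase gene Art3 read 7.43 and 7.65 against 4.56 and 4.23, and Sdcbp2, which encodes a syntenin, 9.79 and 10.2 against 6.91 and 6.70. A second Art3 probe set, of low mean signal (2.96), differed by -0.36 in IL-7. Endod1 differed by 3.17 in IL-7 and 1.88 ex vivo on the probe set used. Its other probe sets differed by 0.48, 0.17, 0.22 and 0.32 in IL-7, the first with a mean signal of 5.35 and the rest below the filter value of 4.06. Over all 83 lasting genes higher in memory cells, the median difference was 1.85 in IL-7 and 1.63 ex vivo. These medians describe genes chosen by both comparisons.

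**Figure D2:**
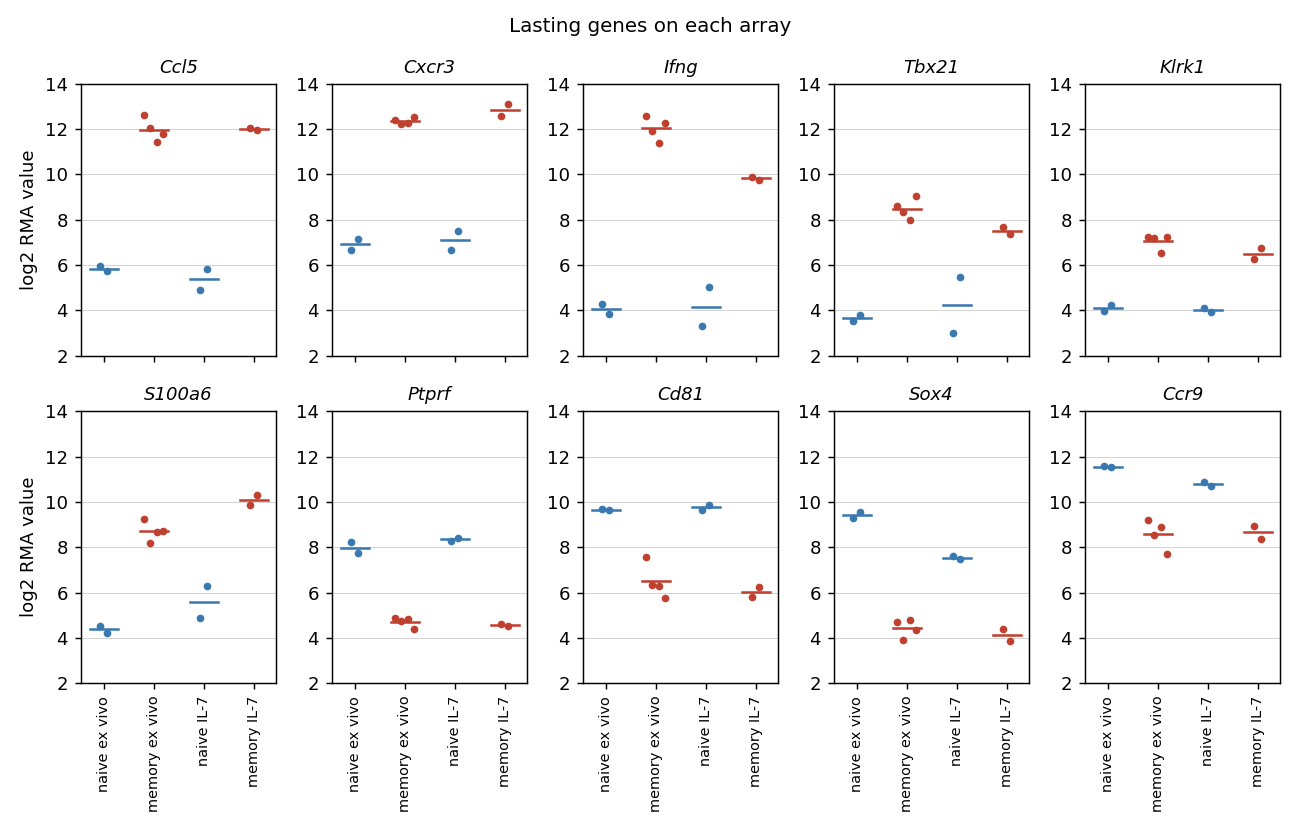
Log2 RMA value (vertical axis) of 10 lasting genes on each naive (blue) and memory (red) array, ex vivo and in IL-7; points are arrays and bars are group means. Ccl5, Cxcr3, Ifng, Tbx21, Klrk1 and S100a6 are higher and Ptprf, Cd81, Sox4 and Ccr9 lower on every memory array than on any naive array of the same condition.

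Of 23 naive CD8 genes tested, 2 were lasting and lower in memory cells (Sox4 and Ccr9), against 0.203% of all genes. Sox4, a transcription factor of lymphoid development, read 4.39 and 3.85 on the memory and 7.62 and 7.47 on the naive IL-7 arrays, and 4.72, 3.89, 4.78 and 4.36 against 9.29 and 9.57 ex vivo. Naive cells fell by 1.89 in culture (adjusted p = 0.0198), the groups did not overlap, and the difference was -3.43 ± 0.47 (SE, adjusted p = 0.00094) in IL-7. A second Sox4 probe set of near-equal mean signal (5.66 against 5.67) differed by -0.95 in IL-7. Further Sox4 probe sets above the filter value of 4.06 in mean signal differed by -0.01, -0.15 and -1.92. Sox4 was also the 1 gene called of 14 naive and stem-like transcription factors. Ccr9 differed by -2.12 ± 0.37 (SE, adjusted p = 0.00525) in IL-7, a call lost without memory array 2 (0.101) or naive array 1 (0.0513). The medians of both lists were below 0 ex vivo, at -0.22 and -0.36, and just above 0 in IL-7, at 0.12 and 0.10. Lef1, a transcription factor of naive and stem-like cells, read 11.6 and 11.6 against 11.7 and 11.3 in IL-7, and Ccr7, the lymph node homing receptor, 9.99 and 10.5 against 10.7 and 11.3. Neither passed in IL-7 or ex vivo.

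Further lasting genes lower in memory cells were named by the size of their difference. Ptprf, which encodes the receptor phosphatase LAR, read 4.60 and 4.54 in memory and 8.29 and 8.42 in naive cells in IL-7, a difference of -3.78 ± 0.29 (SE, adjusted p = 6.55e-06). Cd81, a tetraspanin gene, read 5.80 and 6.26 against 9.64 and 9.88 (-3.73 ± 0.38 (SE, adjusted p = 7.18e-05)). Trat1, an adaptor of the T cell receptor complex, read 6.198 and 5.44 against 8.32 and 8.53, and Mtss1, which couples actin to the membrane, 5.34 and 4.79 against 8.29 and 7.60. Other Mtss1 probe sets above the filter value of 4.06 in mean signal differed by -0.92, 0.22, -0.56 and -1.60 in IL-7. The non-coding RNA gene Dleu2 read 4.21 and 3.89 against 6.71 and 7.19. Its difference was -2.90 in IL-7 and -2.85 ex vivo. Hacd1, an enzyme of fatty acid elongation, read 2.77 and 3.02 against 6.18 and 7.49. The call of Hacd1 was lost without memory array 1 (0.136), memory array 2 (0.118) or naive array 2 (0.223), and that of Trat1 without memory array 2 (0.0887) or naive array 2 (0.0532). The tubulin gene Tubb2b fell in culture in both states and stayed lower in memory cells (-2.44, adjusted p = 0.0261), a call lost without any 1 of the 4 IL-7 arrays (adjusted p up to 0.261). Xkrx differed by -3.16 and the uncharacterised 2810410L24Rik by -3.63, the latter with an adjusted p of 0.0711 without memory array 2. Ex vivo, the calls of 2810410L24Rik and Hacd1 were lost without naive array 1 (0.148 and 0.195) or naive array 2 (0.154 and 0.0791), and that of Tubb2b without naive array 2 (0.0777). Over the 28 lasting genes lower in memory cells, the median difference was -2.06 in IL-7 and -2.45 ex vivo.

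Of 15 memory surface and signalling genes tested, 3 were higher and 0 lower in memory cells in IL-7, as were 3 and 0 ex vivo. Of these 15, 2 were lasting, against 0.806% of all genes, and 1.02% of all genes were higher ex vivo. The median of the 15 was 0.34 in IL-7 and 0.43 ex vivo. Several hallmark genes of CD8 memory were not called in IL-7. Cd44, the adhesion receptor that usually marks memory cells, read 8.40 and 9.04 in memory and 3.43 and 6.26 in naive cells, and 9.73, 9.38, 10.1 and 9.99 against 6.67 and 6.57 ex vivo. The groups did not overlap, and the 2 naive IL-7 arrays lay far apart. The 2 probe sets of Cd44 with the highest signal differed by 3.88 and 3.06 in IL-7, and another, near the filter value, by 0.69. The difference of 3.88 ± 1.02 (SE, adjusted p = 0.0622) missed the threshold. It passed without naive array 2 (adjusted p = 0.0415) and without the second medium array (0.0348), and as the mean of its probe sets (1.95, 0.0352) or with centred arrays (0.0259). Fasl, which encodes the death ligand, fell in memory cells from 9.67, 9.02, 9.17 and 9.54 ex vivo to 5.53 and 5.69 in IL-7, while naive cells read 4.75 and 4.46 ex vivo and 3.82 and 3.80 in IL-7. The memory arrays stayed above the naive ones, and the difference of 1.80 ± 0.57 (SE, adjusted p = 0.129) in IL-7 was smaller than the 4.74 ± 0.49 ex vivo, but the change did not pass (adjusted p = 0.17). With the second medium array left out it did (0.000633), and Fasl was then called in both comparisons. Gzmb, which encodes granzyme B, read 7.35, 7.26, 6.37 and 7.32 on the memory ex vivo arrays and 4.83 and 5.05 on the naive ones. After culture it read 4.38 and 4.12 in memory and 4.95 and 6.26 in naive cells, so that the order of the states was reversed in value. Neither difference passed (2.14, adjusted p = 0.0927 ex vivo; -1.36, adjusted p = 0.447 in IL-7). With that array left out Gzmb was a lost gene (change -3.49, adjusted p = 0.023). Gzma, granzyme A, fell in culture in both states and ended at 5.04 and 5.57 against 5.30 and 5.65. Of 19 cytotoxic granule and death ligand genes, 0 were called in IL-7, against 1 higher (Fasl) and 1 lower (Ctsc, which encodes the granzyme-activating protease cathepsin C) ex vivo. Of all genes, 1.02% were higher and 0.908% lower ex vivo. At an unadjusted p under 0.05 6 of the 19 passed in IL-7 and 9 ex vivo, against 13.3% and 17.2% of all genes. The Ctsc call was lost without any 1 of the 10 arrays (adjusted p up to 0.289). With the second medium array left out, 1 of the 19 was higher and 1 lower in IL-7.

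Other fixed memory genes read as follows in IL-7. Gzmk, granzyme K, read 6.99 and 7.51 in memory against 5.49 and 5.41 in naive cells, and the groups did not overlap, but its difference missed the threshold (adjusted p = 0.0916). Il2rb, the receptor beta chain for IL-2 and IL-15, fell in memory cells by 1.99 in culture (adjusted p = 0.0113) and read 6.79 and 6.80 against 6.29 and 7.17. Lgals1, which encodes galectin-1, read 10.9 and 11.4 against 8.82 and 9.92 (adjusted p = 0.0672). It passed without the second medium array (0.0343). Prf1, perforin, differed by -0.26, Gzmm by -0.50, Id2 by -1.11, Anxa1 by 0.32, Itgb1 by 0.13, Hcst by 0.12 and Cd8a by -0.37, and none of these passed. S100a4 was called ex vivo only (0.82, adjusted p = 0.0415) and differed by 0.63 in IL-7. That call was lost without either naive IL-7 array, memory ex vivo array 1, 2 or 4 or either naive ex vivo array (adjusted p up to 0.298).

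Of the 7 genes whose memory-naive difference changed in culture, 6 became lower in memory cells, and in all 6 naive cells rose in culture past the test. Of all genes, 7% rose in naive cells. The change in naive cells is part of the quantity that chose these genes, so this count follows in part from the choice. Ecm1, which encodes a secreted matrix glycoprotein, read 10.1 and 10.3 on the naive IL-7 arrays and 6.05 and 6.15 on the memory IL-7 arrays. Ex vivo, it read 6.61 and 6.56 in naive and 6.65, 5.90, 6.57 and 6.68 in memory cells, so the naive IL-7 arrays stood alone. The difference was -0.14 ± 0.21 ex vivo and -4.11 ± 0.25 (SE, adjusted p = 4.87e-07) in IL-7, 17.3-fold lower in memory cells, and the change passed (-3.97, adjusted p = 9.35e-05). The uncharacterised gene D630039A03Rik rose in naive cells from 4.83 and 4.63 to 9.09 and 8.88. Memory cells read 4.59, 4.01, 4.34 and 4.94 ex vivo and 4.97 and 4.82 in IL-7. Lta, which encodes the TNF family cytokine lymphotoxin-alpha, rose in naive cells from 5.29 and 5.30 to 9.13 and 9.14, while memory cells read 6.10, 5.61, 5.89 and 5.92 ex vivo and 6.32 and 5.53 in IL-7. Its difference went from 0.58 ± 0.32 to -3.21 ± 0.37 (SE, adjusted p = 0.000174).

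Pde5a, a phosphodiesterase that breaks down cyclic GMP, and Olfml3, a secreted olfactomedin-like protein, followed the same course with smaller sizes. Pde5a read 5.74 and 5.05 in naive and 2.90 and 2.73 in memory cells in IL-7, and Olfml3 7.25 and 7.24 in naive and 5.47 and 5.19 in memory cells. Pum3, an RNA-binding protein of the Pumilio family, moved least: naive cells rose by 0.64 and memory cells fell by 0.54, and both moves passed (adjusted p = 0.0142 and 0.0115). Its difference was 0.41 ex vivo on the probe set used. Other Pum3 probe sets, of mean signal 8.76 and 6.68, differed by -0.80 and -1.02 in IL-7 and by 0.25 and -0.43 ex vivo. On the last of them memory cells were thus already lower in value before culture. Xdh, xanthine dehydrogenase of purine breakdown, was the 1 culture-only gene higher in memory cells. It fell in naive cells from 6.75 and 7.05 to 5.10 and 5.50 and read 7.15 and 7.36 in memory cells. The changes of Ecm1 and D630039A03Rik passed with any 1 of the 10 ex vivo and IL-7 arrays left out. That of Lta missed the threshold without memory IL-7 array 2 (adjusted p = 0.0662) or naive ex vivo array 2 (0.0507), that of Pde5a without memory IL-7 array 2 (0.0922) or either naive ex vivo array (0.0652 and 0.0507), and that of Xdh without memory IL-7 array 2 (0.184), naive IL-7 array 1 (0.0713), memory ex vivo array 1 (0.0545) or 3 (0.0534) or naive ex vivo array 2 (0.13). Olfml3 missed it without memory IL-7 array 2 (0.136), naive IL-7 array 2 (0.0882) or either naive ex vivo array (0.0672 and 0.0902). Pum3 missed it without any 1 of the 10 arrays (up to 0.283), and lost its IL-7 call without any 1 of the 4 IL-7 arrays (up to 0.097).

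The arrays with IL-4 added to IL-7 give the same genes in a second culture that shares no array with the IL-7 or ex vivo comparison. It is no separate test, since all comparisons share 1 fit and its spread and the cultures may come from the same populations. Deviations of same-numbered IL-7 and both-cytokine arrays correlated at 0.511 in naive and 0.251 in memory cells. Ecm1 read 6.403 and 6.84 in naive and 6.39 and 6.15 in memory cells with both cytokines, below the naive IL-7 arrays. D630039A03Rik was high in both states with both cytokines, at 11.01 and 11.2 in naive and 10.4 and 10.2 in memory cells. Lta read 7.49 and 8.57 in naive and 8.26 and 7.53 in memory cells there. Of the 6 culture-only genes lower in memory cells, 1 passed with both cytokines, Pde5a (-1.42, adjusted p = 0.005), and Xdh passed in its own direction (1.43, adjusted p = 0.00178). In that comparison 525 genes passed in all (3.81%). Of the lasting genes, 58 of the 83 higher (69.9%) and 23 of the 28 lower (82.1%) passed with the same sign there, and all 111 had the same sign, against 222 higher (1.61%) and 303 lower (2.2%) among all genes. Ccl5 differed by 5.29, Cxcr3 by 6.05, Ifng by 6.14 and Ptprf by -3.58 with both cytokines. Klrk1 differed by 0.60 there and did not pass (adjusted p = 0.152). Differences between the 2 cultures were not tested.

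**Figure D3:**
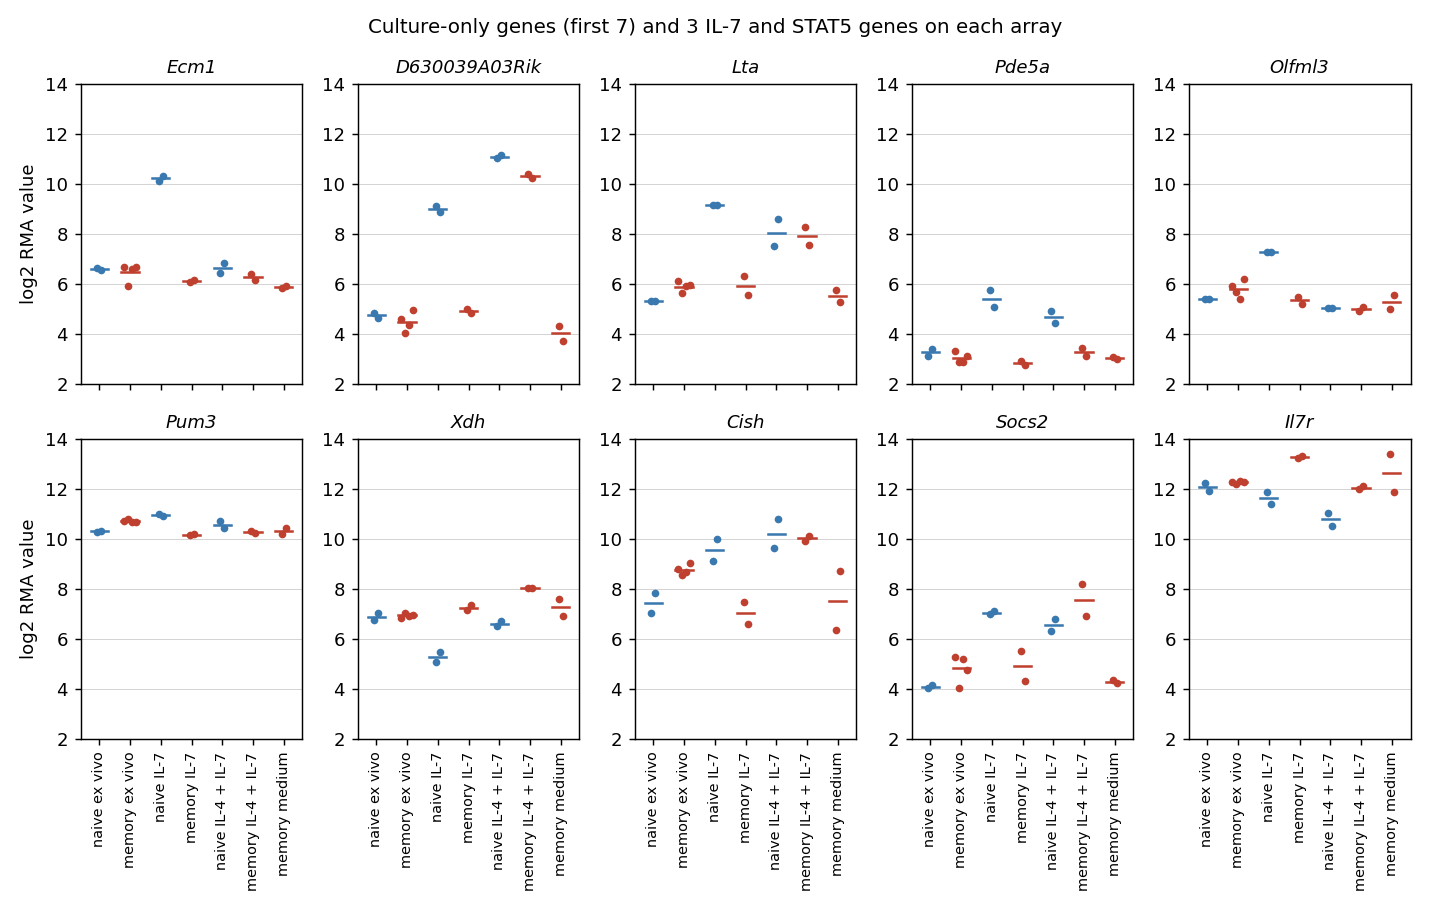
Log2 RMA value (vertical axis) of the 7 culture-only genes and of Cish, Socs2 and Il7r on each naive (blue) and memory (red) array of 7 groups; points are arrays and bars are group means. Ecm1 is at 10 or above only on the naive IL-7 arrays, while Cish is lower on the memory IL-7 arrays than on the naive IL-7 arrays and on all 4 arrays with both cytokines.

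Genes known to respond to IL-7 and STAT5 were lower in memory cells in IL-7 for 6 of 21 tested, while 2 were higher. Ex vivo 0 of the 21 passed. At an unadjusted p under 0.05 12 of the 21 passed in IL-7 and 6 ex vivo, against 13.3% and 17.2% of all genes. The median difference was -0.65 in IL-7 and 0.38 ex vivo, against -0.05 and 0.03 over all genes. The feedback inhibitor Cish read 7.49 and 6.62 on the memory and 9.14 and 10.0 on the naive IL-7 arrays. Before culture the order was the reverse, with 8.83, 8.55, 8.68 and 9.06 in memory and 7.05 and 7.84 in naive cells. Memory cells fell by 1.72 in culture (adjusted p = 0.032) and naive cells rose by 2.13 (0.0332). The difference was -2.52 ± 0.60 (SE, adjusted p = 0.0377) in IL-7 and 1.34 ± 0.52 ex vivo (adjusted p = 0.21), and the change missed the threshold (-3.85, adjusted p = 0.0972). It passed without the second medium array (0.00525), where Cish was 1 of the 8 turned genes. The IL-7 call of Cish was lost without any 1 of the 4 IL-7 arrays (adjusted p up to 0.355) or any 1 of the memory ex vivo arrays (up to 0.0564).

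The related inhibitor Socs2 read 5.53 and 4.33 in memory and 7.02 and 7.11 in naive cells in IL-7, having been at 4.05 and 4.15 in naive cells ex vivo. Its difference was -2.13 ± 0.45 (SE, adjusted p = 0.0196). Other Socs2 probe sets above the filter value of 4.06 in mean signal differed by -0.05 and -1.88 in IL-7. Memory cells in medium read 4.35 and 4.25, the second on the array that lay near ex vivo. The survival kinase Pim2 differed by -1.94 ± 0.44 (SE, adjusted p = 0.0291), the growth regulator Myc by -1.87 ± 0.37 (SE, adjusted p = 0.0138), and the cytokine Osm, oncostatin M, by -1.52 ± 0.29 (SE, adjusted p = 0.00961) in IL-7. Lta completed the 6. Leaving out single IL-7 arrays cost the calls of Socs2, Pim2, Myc and Osm, with adjusted p up to 0.269, 0.215, 0.188 and 0.158; memory array 2 and naive array 1 each cost all 4, naive array 2 all but Osm, and memory array 1 Pim2. The 2 higher genes were Il7r and Igf1r, the insulin-like growth factor receptor. Il7r read 13.3 and 13.3 on the memory and 11.9 and 11.4 on the naive IL-7 arrays, and 12.3, 12.2, 12.3 and 12.3 in memory against 12.2 and 11.9 in naive cells ex vivo. Memory cells in medium read 13.4 and 11.9, again with the second array near ex vivo. The Il7r difference was 1.64 ± 0.35 (SE, adjusted p = 0.0195) in IL-7 and 0.19 ex vivo, and its call was lost without memory array 1 (0.122), memory array 2 (0.151) or naive array 2 (0.231). Igf1r read 9.51 and 9.22 against 7.70 and 7.22, a difference of 1.90. Its other probe sets differed by 0.47, 1.61, 1.65 and 0.08 in IL-7. Bcl2 rose in naive cells by 2.42 (adjusted p = 0.0024) to 11.6 and 11.3 and read 11.2 and 9.72 in memory cells, a difference that did not pass (-0.95, adjusted p = 0.26), except without memory array 1 (0.0202). With the second medium array left out, 7 of the 21 were lower and 2 higher, and the change of the difference passed for 5: Cish, Socs2, Lta, Myc and Il7r.

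Promoter windows of Cish and Lta are shown because both genes are on this list, were lower in memory cells in IL-7 and hold the STAT5-type motif more than once. The windows are RefSeq sequences of build GRCm38.p6, 250 bases before to 50 after the annotated start, written 5′ to 3′ on the strand of the gene. Capitals mark matches to TTCNNNGAA, a palindrome and so the same on both strands. The Cish window is chr9:107296409-107296708 on the plus strand and the Lta window chr17:35205302-35205601 on the minus strand.
Cish: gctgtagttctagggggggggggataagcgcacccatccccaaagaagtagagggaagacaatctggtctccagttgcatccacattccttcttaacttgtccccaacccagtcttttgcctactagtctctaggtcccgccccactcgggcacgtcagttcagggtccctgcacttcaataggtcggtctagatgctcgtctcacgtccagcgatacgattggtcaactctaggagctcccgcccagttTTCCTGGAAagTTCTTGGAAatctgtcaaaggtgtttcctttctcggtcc
Lta: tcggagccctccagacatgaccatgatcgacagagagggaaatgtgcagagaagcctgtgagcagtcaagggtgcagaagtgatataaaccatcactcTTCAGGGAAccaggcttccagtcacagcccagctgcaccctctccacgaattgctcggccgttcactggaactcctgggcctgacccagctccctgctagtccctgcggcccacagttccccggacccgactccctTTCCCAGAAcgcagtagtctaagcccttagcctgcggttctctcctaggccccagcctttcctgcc
Each window holds 2 matches, at positions 251 and 262 of the Cish window and 99 and 235 of the Lta window. Of all 32851 RefSeq windows of this length, 8.3% hold at least 1 match and 0.457% hold 2 or more. Of the 6 list members lower in memory cells, 3 had a window, and 2 of these held the motif. Among the culture-only genes, 2 of 6 windows held it (Lta and Pum3), and among the lasting genes 9 of 95 windows of higher genes (9.47%) and 2 of 29 of lower genes (6.9%). The T-box motif TCACAC, searched on both strands, was in 16 of the 95 windows of lasting higher genes (16.8%), against 14.5% of all windows. A match describes these letters only and is no evidence of binding.

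**Figure D4:**
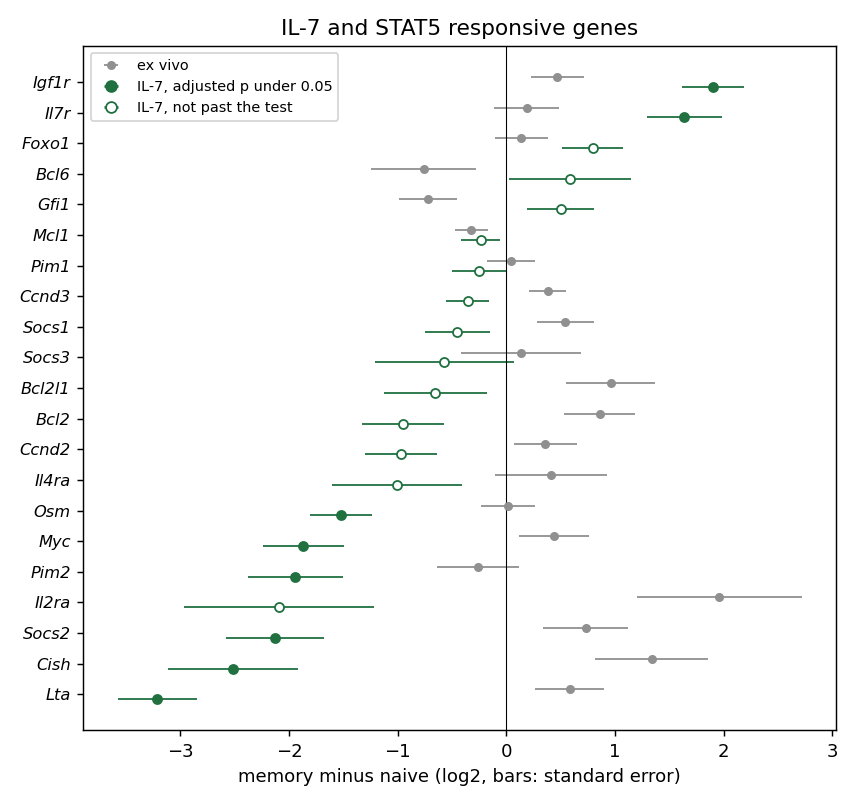
Memory minus naive difference (horizontal axis, log2, bars are SE) of 21 IL-7 and STAT5 responsive genes ex vivo (grey) and in IL-7 (green, filled where the adjusted p was under 0.05). In IL-7, Igf1r and Il7r lie to the right and Osm, Myc, Pim2, Socs2, Cish and Lta to the left of 0 beyond the threshold, while no ex vivo difference passed.

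Genes of amino acid supply and one-carbon metabolism were among those lower in memory cells in IL-7. Of 19 amino acid and unfolded protein response genes tested, 5 were lower and 0 higher, with a median of -0.93 in IL-7 and 0.15 ex vivo. The large neutral amino acid transporter gene Slc7a5 read 7.91 and 7.81 on the memory and 10.1 and 11.03 on the naive IL-7 arrays, and 10.5, 10.4, 10.1 and 10.5 against 9.89 and 10.2 ex vivo. Memory cells fell by 2.50 in culture (adjusted p = 0.00784) while naive cells did not move past the test (0.52, 0.658). Shmt2, the mitochondrial enzyme that splits serine, read 8.48 and 8.18 against 10.2 and 11.1 in IL-7. Here memory cells fell and naive cells rose (-0.92, adjusted p = 0.0263, and 1.38, 0.0121), which opened a difference of -2.33 ± 0.31 (SE, adjusted p = 0.000666) from -0.02 ex vivo. Mthfd2, of mitochondrial folate metabolism, differed by -1.92 (adjusted p = 0.0366), Phgdh, the first enzyme of serine synthesis, by -1.38 (0.0111), and the disulfide isomerase Pdia4 by -1.02 (0.00253). Asns, asparagine synthetase, was higher in memory cells ex vivo (3.29, adjusted p = 0.00236) and by 1.28 in IL-7, which did not pass. Its ex vivo call was lost without naive ex vivo array 1 (0.0568). Pdia4 lost its call without memory array 2 (0.0584) and as the mean of its probe sets (0.129). Slc7a5, Mthfd2 and Phgdh lost theirs without memory array 1 (0.152, 0.196 and 0.111), memory array 2 (0.183, 0.216 and 0.0848) and naive array 2 (0.29, 0.438 and 0.184), Slc7a5 also without naive array 1 (0.0523) and Mthfd2 without memory ex vivo array 1 (0.0543) or 3 (0.0521). With the second medium array left out, 6 of the 19 were lower, and the change of the difference passed for Phgdh, Shmt2, Mthfd2, Slc7a5 and Pdia4.

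Further cytokine genes, the costimulatory receptor gene Tnfrsf18 and cholesterol genes were also lower in memory cells in IL-7. Tnf read 6.68 and 5.28 in memory and 8.55 and 8.39 in naive cells in IL-7, and 8.004, 7.19, 7.75 and 7.96 against 7.18 and 7.30 ex vivo, a difference of -2.49 ± 0.46 (SE, adjusted p = 0.00869) in IL-7. With Lta and Osm, Tnf made up the 3 lower of the 15 cytokine and chemokine genes, whose median was -0.74 in IL-7 and 0.49 ex vivo. The call of Tnf was lost without memory array 2 (0.142), naive array 1 (0.0666) or naive array 2 (0.0649). Tnfrsf18, which encodes the costimulatory receptor GITR, read 10.7 and 10.2 against 12.2 and 12.5 in IL-7 and 10.7, 11.01, 10.9 and 10.8 against 10.8 and 10.7 ex vivo, and was the 1 call among 14 costimulatory genes (-1.87 ± 0.26 (SE, adjusted p = 0.00107)). Of 17 cholesterol synthesis genes, 3 were lower and 0 higher, and with centred arrays 2 were lower. In IL-7 0 of the 17 lay above 0, against 11 ex vivo, and the median was -0.44 against 0.05. Over all genes the medians were -0.05 in IL-7 and 0.03 ex vivo. Mvd, which makes isopentenyl diphosphate, read 7.56 and 7.53 in memory and 8.70 and 8.83 in naive cells in IL-7, after naive cells had risen by 1.84 (adjusted p = 0.00119). Fdps and Msmo1, further enzymes of the pathway, differed by -1.06 and -1.17. All 3 calls were lost without any 1 of the 4 IL-7 arrays, with adjusted p up to 0.132 for Mvd, 0.201 for Fdps and 0.405 for Msmo1, which also lost its call without memory ex vivo array 2 or either naive ex vivo array. As means of their probe sets Fdps and Msmo1 did not pass (0.102 and 0.225).

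Other lists gave few or no calls in IL-7. Of 28 immediate early genes 0 passed in limma's test, 6 at an unadjusted p under 0.05, with a median of -0.60 in IL-7 and 0.22 ex vivo. The list's median change in culture was -3.03 in memory and -1.70 in naive cells. Egr1, the best known of them, read 8.80 and 7.58 in memory and 10.3 and 12.1 in naive cells in IL-7, and its difference did not pass (-2.98, adjusted p = 0.134). With the second medium array left out Egr1 passed (0.0322), and 5 of the 28 were lower and 1 higher. Of 28 interferon-stimulated genes, 4 were lower in memory cells ex vivo (Ifit1, Oas3, Oasl1 and Cmpk2), against 0.908% of all genes, and 0 passed in IL-7. At an unadjusted p under 0.05, 7 of the 28 passed ex vivo and 4 in IL-7, against 17.2% and 13.3% of all genes. The list medians were -0.38 ex vivo and 0.13 in IL-7. All 4 ex vivo calls were lost without naive ex vivo array 2, with adjusted p from 0.0798 to 0.381. Ifit1 differed by -2.00 ex vivo (adjusted p = 0.00956) and by -0.25 in IL-7. In the same test 0 genes passed in IL-7 among 14 of the BCL2 family, 26 of the cell cycle, 17 of glycolysis, 19 of fatty acid oxidation and 16 of T cell receptor signalling, and 3, 2, 3, 1 and 1 did at an unadjusted p under 0.05, against 1832 of all 13770 genes (13.3%). Of 21 cytokine receptor genes, 3 were higher (Il7r, Il18r1 and Il18rap), with a median of -0.02 in IL-7. Over the 254 undecided IL-7 calls, 163 were lower in memory cells, and 74 of these had risen in naive cells and 51 had fallen in memory cells past the test. Of all genes, 7% rose in naive cells and 8.85% fell in memory cells. The same IL-7 arrays chose the 163 genes, so these counts follow in part from the choice.

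**Figure D5:**
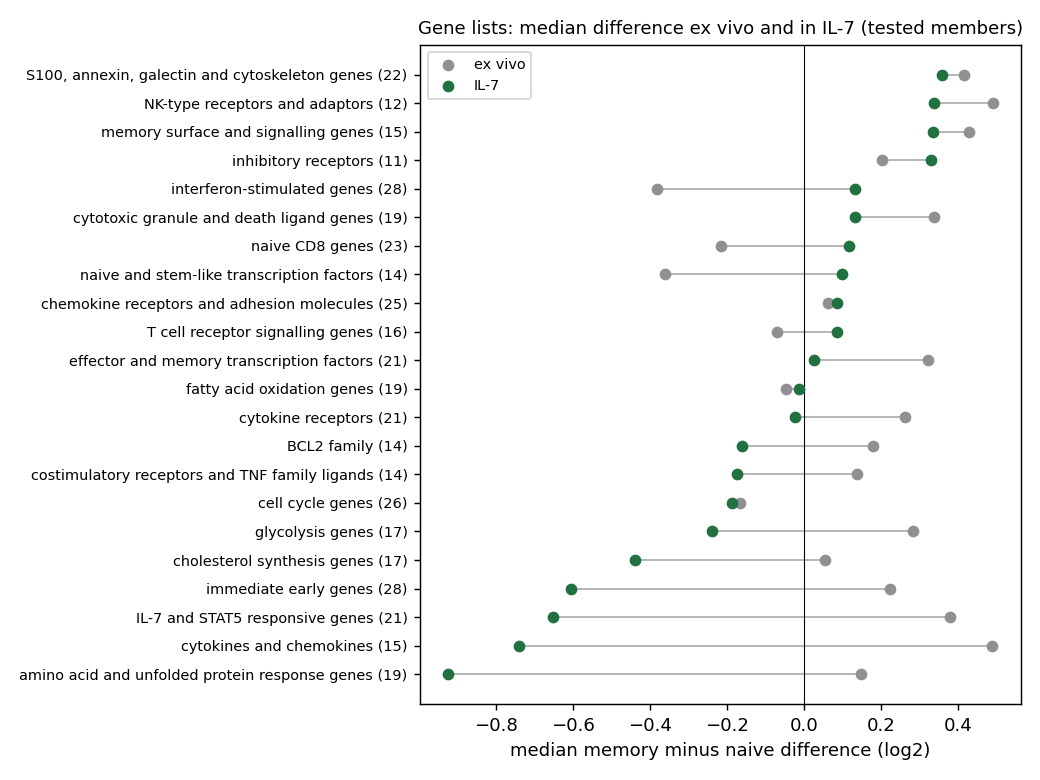
Median memory minus naive difference (horizontal axis, log2) of the tested members of 22 gene lists ex vivo (grey) and in IL-7 (green), with the number of members in brackets; a line joins the 2 medians of a list. The amino acid, cytokine, IL-7 and STAT5, immediate early and cholesterol lists lie below -0.4 in IL-7 and above 0 ex vivo.

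Named calls that passed in IL-7 only, outside these lists, included Xist, with a difference of 7.94 ± 1.83 (SE, adjusted p = 0.0315). St8sia6, a sialyltransferase gene, rose in memory cells in culture by 2.80 (adjusted p = 0.00884) and read 8.19 and 8.60 against 5.24 and 4.36. On the lower side, Cdk6, a cell cycle kinase, read 8.42 and 7.13 in memory and 10.96 and 11.1 in naive cells, where it had risen by 2.06 (0.0384). The transcript AA467197 rose in naive cells by 4.47 (0.00209), to 8.33 and 9.60 against 6.13 and 4.91 in memory cells. Metrnl, which encodes the secreted protein meteorin-like, read 3.85 and 4.12 against 6.35 and 7.73, with a difference of -3.06 ± 0.46 (SE, adjusted p = 0.00194) in IL-7 and 0.22 ex vivo. Ndrg1, a stress-responsive gene, differed by -3.40 in IL-7 (adjusted p = 0.0452) and by -2.49 ex vivo. Other Ndrg1 probe sets above the filter value of 4.06 in mean signal differed by -3.75, 0.12 and -0.76 in IL-7. Without memory array 2 the adjusted p was 0.227 for Xist, 0.129 for St8sia6, 0.142 for Cdk6, 0.177 for AA467197 and 0.315 for Ndrg1. Without naive array 2 it was 0.218, 0.155, 0.0859, 0.186 and 0.476. Memory array 1 also cost the calls of Xist, St8sia6 and Ndrg1, naive array 1 those of Xist and Cdk6, and each ex vivo array that of Ndrg1 (up to 0.0659). Metrnl passed with any 1 of the 10 arrays left out. Its other probe sets, of low mean signal (3.60 and 3.25), differed by 0.10 and -0.19 in IL-7.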

How the data were processed

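RNA of 18 sorted or cultured samples was hybridised to Affymetrix mouse arrays. The deposited values are log2 signals that the authors made with RMA, which the submitters' processing notes name, with limma, without versions. RMA corrects background and gives all arrays 1 distribution, so a shift of all genes cannot be seen. Of 45101 probe sets, the annotation gave 34958 exactly 1 gene symbol, 932 several and 9211 none; only the first were used. The probe set with the highest mean over the 18 arrays stood for its gene (18194 genes), and 13770 genes above the 40th percentile (4.06) on at least 2 arrays were tested.

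Differences were fitted with limma 3.58.1 in R 4.3.3 (lmFit and eBayes, 8 group means, 10 residual degrees of freedom, two-sided, Benjamini-Hochberg over all genes). The number of arrays limits the precision. The members and gene lists were chosen with earlier results of these data known. Named genes were the 15 largest called rises and falls in IL-7, the 10 largest of each class and direction, up to 4 called members of each list (2 where none passed), and fixed genes of CD8 memory; Myc, Pdia4, Asns, Ctsc, Ifit1 and the other interferon-stimulated genes, Fcgr3, Zbtb7b, Alas2, Hba-a1, Ms4a1, H2-Aa and Eif2s3y were chosen after their values were seen. The comparison of memory cells in IL-7 and in medium was also chosen after seeing the data. Alternatives left out each array of the 4 groups compared and the second medium array, and changed the fit, filter, probe set rule, centring, moderation, replicate block and threshold.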

Additional observations from a re-analysis of the deposited data

Results flagged for a closer look

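Among 111 genes checked on the 4 memory ex vivo arrays, 10 had an array far from the other 3; chance gives about 1 in 20. Alas2 was high on array 1 (11.5). Bik was low on array 4 (5.08) and Cdh1 high on it (7.47), where Hcst was low (9.44). Ecm1 was low on array 2 (5.90), and Hacd1 (4.25) and Pdia4 (6.19) were high on array 1. On array 3, Gzmb (6.37), Klrk1 (6.53) and Xist (4.40) were low.

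The memory-naive difference in IL-7 departed from the ex vivo difference in 7 genes, by limma's test of the change itself. The change (IL-7 difference minus ex vivo difference, log2) was -3.83 for D630039A03Rik, -3.97 for Ecm1, -3.79 for Lta, -2.33 for Olfml3, -2.37 for Pde5a, -1.19 for Pum3 and 1.91 for Xdh.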

How the results depend on the processing

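Most counts moved with single arrays; beyond fewer or other arrays in the fit, the cause was not tested. Leaving out each of the 10 ex vivo and IL-7 arrays in turn gave 86 to 353 IL-7 calls (at least 83 of them among the 372), 112 to 244 ex vivo calls, 52 to 99 lasting genes (at least 51 among the 111), 2 to 14 changed differences, 2 to 14 culture-only genes, 0 to 1 lost and 0 turned. The same settings gave 3 to 2623 calls for culture in memory cells, 258 to 1607 in naive cells, 349 to 476 with both cytokines and 0 to 1 between IL-7 and medium in memory cells. Leaving out the second medium array of memory cells gave 661 calls in IL-7, 605 ex vivo, 3707 for culture in memory cells, 2772 for culture in naive cells, 1029 with both cytokines, 127 changed differences, 175 lasting, 78 culture-only, 28 lost and 8 turned. A fit of the 10 ex vivo and IL-7 arrays alone gave 818, 688, 3067 for culture in naive cells, 145 changed, 202 lasting, 96 culture-only, 31 lost and 9 turned.

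Replicate numbers are shared between groups but nothing in the labels ties them to a population: deviations of same-numbered memory and naive IL-7 arrays correlated at 0.014. Within a cell state, same-numbered IL-7 arrays and arrays of another culture correlated at 0.251 to 0.511, IL-7 and ex vivo arrays at 0.0935 to 0.141, and memory and naive ex vivo arrays at 0.344 and 0.0539. Eif2s3y was higher on number 1 than on number 2 in each memory culture (10.2 and 6.65 in IL-7, 10.1 and 6.67 in IL-4, 9.48 and 6.78 in both and 9.84 and 6.02 in medium). The same order held on memory ex vivo arrays 1 and 2 (9.24 and 6.12). Alas2 had this order in the same groups, at 11.5 and 8.41 ex vivo and 10.1 and 7.05 in IL-7. These are hints from the data and not the design. With the replicate number as a fixed block, 372 genes passed in IL-7 (317 in common), 4 differences changed, 4 genes were culture-only and 1446 passed for culture in memory cells. In that fit Gzmk passed in IL-7 (1.80, adjusted p = 0.00716) and ex vivo (2.20, 0.00261) and Bik and Lgals1 passed in IL-7 (0.0446 and 0.0157), while Klrd1 (0.071), Ndrg1 (0.0663), Pim2 (0.0632), Prdm1 (0.0529) and Tubb2b (0.0551) did not, nor ex vivo did Ahnak, Hacd1 or Prdm1 (0.0726 to 0.101). With cell state and number as a random block there were 19 changed, 16 culture-only and 3 lost. The mean over probe sets ended the calls of Ndrg1 in IL-7 (0.0699) and Cmpk2 ex vivo (0.0847) and gave 16 changed, 14 culture-only, 1 lost and 1 turned, and testing all probe sets separately gave 4769 and 2752 calls for culture in memory and naive cells. Centring each array ended the IL-7 calls of Msmo1 (0.0671) and Pum3 (0.149) and gave 1 lost gene, as did moderation with trend and robust fitting, and centring split the both-cytokine calls into 290 higher and 164 lower of 454, against 222 and 303. At an adjusted p under 0.1 there were 32 culture-only, 6 lost and 2 turned genes, and under 0.01 there were 62 lasting and 4 culture-only. Without a filter on low values the lasting genes were 109, all among the 111. Among named genes, no called result changed sign. Sign changes of results that had not passed were counted as unchanged. By that count, 59 of 109 IL-7 results kept their side of the threshold under every alternative run.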
